A study of Mus musculus with 20 samples.

Results

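Macrophages of visceral adipose tissue (VAT) and of spleen, sorted from young adult mice, were compared in 5 RNA sequencing libraries out of the 20 in the series. The 5 libraries were chosen by tissue, age and genotype from their titles and were 3 from VAT and 2 from spleen. All of them came from male wild-type mice aged 3 months, with no transgene and no agent named in the labels. Cells were taken by fluorescence-activated sorting as positive for F4/80, the product of Adgre1, and CD11b, the product of Itgam, which are surface proteins of mouse macrophages that other myeloid cells can carry too. In both tissues the sorted cells were held on ice in serum-containing medium before lysis. Libraries of 24-month wild-type male mice, 4 from VAT and 4 from spleen sorted by the same gate, served to ask whether a tissue difference returned at another age. The remaining libraries, from 24-month mice without Nlrp3, were not used here. The labels name neither the animals behind a library nor the way the tissues were dissociated, so the p-values below measure the spread between libraries, which may be technical.

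Tissue macrophages share a core programme set by the factor PU.1 and by signalling through the CSF1 receptor, and each organ adds genes of its own. Red pulp macrophages of the spleen clear aged red blood cells and return their iron to the blood, under the factor SpiC. Macrophages of visceral fat lie along vessels and between fat cells, take up lipid, and are known to break down noradrenaline released by sympathetic nerves. The title of the series names catecholamine breakdown by macrophages in ageing, and the young tissues give the state from which that starts.

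Values below are normalised read counts, that is reads divided by the size factor of the library, in which the lowest entry of every library is 1. The VAT libraries held 27690043 to 36555794 recovered reads and the spleen libraries 30173238 and 31756012, so that 3 reads, the most that a count of 0 allows, equal 2.64 to 3.85 normalised counts (counting error only). Genes with a p under 0.05 after Benjamini-Hochberg adjustment were called, in limma over 13702 genes, on log2(value + 1) in a fit of all 13 wild-type libraries. Where a list below has no gene higher, or no gene lower, that count was also 0 in edgeR and DESeq2. In limma it was also 0 at an unadjusted p under 0.05, except in the nerve and glia list. Log2 differences below are VAT minus spleen, with the standard error (SE) beside some of them. The spleen libraries were less alike than the VAT libraries. On the second principal component of the 13 libraries, which held 6.6% of the variance, spleen replicate 1 lay at 103 and spleen replicate 2 at 25.7, while the VAT libraries of 3 months lay between 19.7 and 32.4. The spleen pair differed by a log2 of at least 1 in 21.7% of the genes, against 12.9% to 14.9% in the VAT pairs. Counts of 3 or more below are therefore also given without a spleen library where leaving it out moved them by over 1.5 times.

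Which genes separated the tissues? Of 13702 genes, 5745 were called (41.9%), 3177 higher in VAT (23.2%) and 2568 lower in VAT (18.7%), and 6836 had an unadjusted p under 0.05. The shares of 23.2% and 18.7% are the background to the list counts below. The VAT and spleen values did not overlap in 8549 genes (62.4%). The first principal component, with 64.7% of the variance, separated the tissues. A log2 of at least 1 was reached by 2513 called genes higher in VAT and 1912 lower, and a log2 of at least 5 by 526 and 216. Over all genes tested the median log2 was 0.07, which quantile normalisation moved by -0.11 to -0.04. Some list medians given below moved more under it. The pan-macrophage median went from 1.22 to 0.62, MHC class II from 1.45 to 0.71 and inflammatory cytokines from 3.03 to 2.23. The complement median went from 2.05 to 1.93. Without spleen replicate 1 the calls numbered 4398, and without spleen replicate 2 they numbered 4948.

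Did the sort markers and the shared macrophage genes bear out the label? Both sort markers were higher in VAT. Adgre1 (chromosome 17, 57358581 to 57483529, mm10) stood at 22995, 23574 and 17903 in VAT and 9360.2 and 5498 in spleen. Its log2 difference was 1.57 (SE 0.24, adjusted p = 9.22e-05), and the groups did not overlap. Itgam (chromosome 7, 128062640 to 128118491) stood at 12420.4, 13349 and 14267 in VAT and 8786 and 9399.5 in spleen. The log2 of 0.55 (adjusted p = 0.0296) lost its call in 6 alternatives, among them without either spleen library (adjusted p = 0.136 and 0.0711) and under quantile normalisation (adjusted p = 0.260). Of 14 pan-macrophage genes 9 were higher in VAT and 1 lower. Their median log2 was 1.22 beside 0.07 over all genes, and under quantile normalisation 0.62 beside -0.04. Csf1r, the receptor for the growth factor on which macrophages depend, stood at 54124, 50879.9 and 44510.5 in VAT and 27485 and 18724 in spleen (log2 1.13, adjusted p = 0.00229). Cd14, a co-receptor for bacterial lipopolysaccharide, rose most in this list in VAT, with 132079, 141968 and 125182 in VAT and 7400.1 and 3234 in spleen (log2 4.76, SE 0.29, adjusted p = 6.49e-09). Fcgr2b, the inhibitory receptor for antibody, was higher in VAT by a log2 of 3.14. Tyrobp, an adaptor of myeloid receptors, fell by 0.66 on the log2 scale (adjusted p = 0.010), a call lost without spleen replicate 1 (adjusted p = 0.0736). Spi1, which encodes PU.1, had a log2 of -0.63 and was not called (adjusted p = 0.0525), but it was called lower in VAT in 7 alternatives, among them edgeR (adjusted p = 0.0376), DESeq2 (adjusted p = 0.0272) and without spleen replicate 2 (adjusted p = 0.00921). Pan-macrophage genes were thus present in every library of both tissues, at a summed level of 802036 to 901226 in VAT and 340523 and 415409 in spleen. Some of them, such as the myeloid adaptor Tyrobp, are not limited to macrophages, so the sum does not measure macrophages alone. With spleen replicate 1 and then 2 left out, the log2 was 5.36 and 4.17 for Cd14.

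Which other cell types left RNA in the sorts? Most neutrophil, B cell, T cell, NK cell, red cell and platelet genes were higher in the spleen sort. Most fibroblast, endothelial and fat cell genes were higher in the VAT sort. The 16 neutrophil genes tested were all lower in VAT (median log2 -9.03). Ngp, a granule protein of maturing neutrophils (chromosome 9, 110419808 to 110423012), stood at 1, 1 and 1 in VAT and 133910 and 201223 in spleen, which is at least 50446-fold lower in VAT. S100a8, a calcium-binding protein abundant in neutrophils, stood at 288, 378 and 262 in VAT and 166487 and 210708 in spleen (log2 -9.26, SE 0.41, adjusted p = 3.32e-10). The neutrophil list summed to 8589 to 15227 in VAT and 723643 and 895268 in spleen, above the sum of the pan-macrophage list in both spleen libraries. In bulk RNA, fewer cells of a type and less RNA per cell cannot be told apart.

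All 14 B cell genes were lower in VAT (median log2 -6.72), and the list summed to 2824 to 3304 in VAT and 101295 and 139373 in spleen. Of the T cell genes 10 of 14 were lower in VAT, and of the NK cell genes 10 of 13, with none higher. Cd3d, a chain of the T cell receptor complex, stood at 80.6, 139.6 and 144 in VAT and 1509.5 and 1850.1 in spleen, and the NK receptor Ncr1 at 16.1, 35.6 and 1 in VAT and 670.3 and 905 in spleen. In both lists the VAT libraries retained low values of some markers. The plasma cell list split, with 4 genes higher and 4 lower in VAT (2 lower without VAT replicate 1). Jchain, which joins secreted antibodies, stood at 4538, 8722 and 2301 in VAT and 45262 and 49700.1 in spleen (log2 -3.40, adjusted p = 1.36e-05), and it was lower in every VAT library.

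Of 15 red cell genes 10 were lower in VAT. The alpha-globin gene Hba-a1 stood at 4170.2, 2675 and 5094 in VAT and 30113 and 27869 in spleen, but reads of the near-identical globin copies cannot be assigned with certainty. Of 11 megakaryocyte genes 10 were lower in VAT, among them the platelet integrin Itga2b with 24.7, 10.6 and 23.1 in VAT and 2255 and 1709 in spleen. The exception was Pf4, a platelet chemokine also made by resident macrophages, which was higher in VAT and is described with those genes. Because of Pf4 the list summed higher in VAT (37992 to 47956) than in spleen (14529 and 19681). Eosinophil genes split, with 2 of 11 higher and 5 lower in VAT, and mast cell and basophil genes with 4 of 12 higher and 7 lower. The mast cell tryptase Tpsb2 stood at 1365, 2113 and 1624 in VAT and 1 and 23.8 in spleen, and the basophil protease Mcpt8 at 1, 8.67 and 1 in VAT and 257 and 2119 in spleen.

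In VAT 11 of 14 fibroblast genes, 11 of 14 endothelial genes, 7 of 10 fat cell genes and 5 of 8 mesothelial genes were higher. Each list also held called genes that were lower in VAT. These were the fibroblast genes Thy1 (log2 -2.34) and Pi16 (log2 -1.72) and the endothelial gene Pecam1 (log2 -2.09). The fat cell gene Lipe (log2 -1.56) and the mesothelial gene Krt7 (log2 -2.83) were lower too. The endothelial count was 7 without spleen replicate 2, and the mesothelial count 2 without spleen replicate 1. Dcn, a matrix proteoglycan of fibroblasts, stood at 17283, 20108 and 17885 in VAT and 6.10 and 132 in spleen (log2 9.22, adjusted p = 8.92e-07). Pdgfra, the receptor that marks fibroblast lineages, stood at 173, 304 and 198 in VAT and 1.02 and 1 in spleen, a ratio of 474 with a counting interval of 85.1 to 18725 on 1 spleen read. The endothelial gene Emcn stood at 215, 235 and 440.5 in VAT and at 1 in both spleen libraries, at least 104-fold higher in VAT. Adipoq, the hormone of fat cells, stood at 442, 213 and 285 in VAT and 1 and 27.3 in spleen (log2 5.32, adjusted p = 0.00141), a call lost in DESeq2 (adjusted p = 0.0693). The summed levels in VAT came to 70507 to 88895 for fibroblast genes, much of it from a single broadly expressed gene, gelsolin, and to 5568 to 7715 for endothelial and 9676 to 15697 for fat cell genes. In spleen the same sums were 17813 and 18372, 3192 and 4295, and 987 and 1459.6. The part of these cells in the differences below was not tested. When spleen replicate 1 or 2 was left out, the log2 came to 7.11 and 11.34 for Dcn and 3.41 and 7.23 for Adipoq, respectively.

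**Figure D1:**
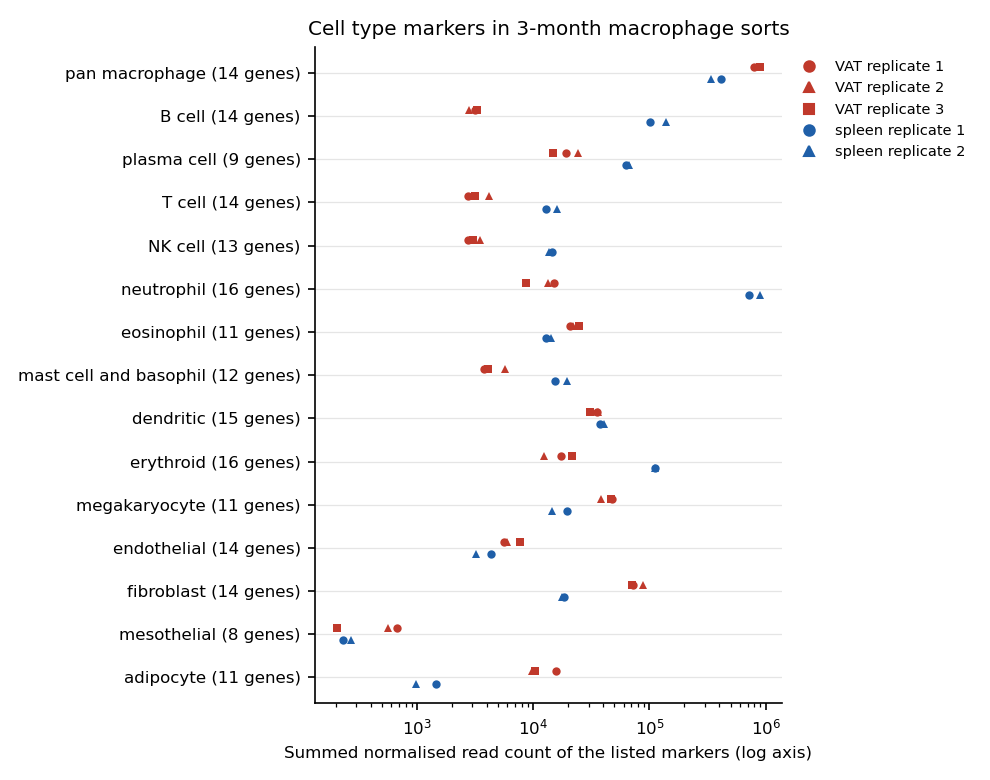
Summed normalised read counts (log axis) of marker genes of macrophages and of other cell types in the 3 VAT and 2 spleen libraries of 3 months, 1 point per library. Neutrophil markers summed to 723643 and 895268 in spleen and to at most 15227 in VAT, while fat cell and fibroblast sums were higher in every VAT library.

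Which resident macrophage programmes marked each tissue? Genes known from resident macrophages of fat were higher in VAT in 23 of 25 cases, with a median log2 of 3.75, and none was lower. Retnla, a secreted protein of alternatively activated macrophages (chromosome 16, 48842609 to 48844461), stood at 376383, 407806 and 526482 in VAT and 31.5 and 81.1 in spleen. Its log2 was 13.03 (SE 1.49, adjusted p = 4.95e-06), and the lowest VAT library lay above the higher spleen library. Folr2, a folate receptor of resident macrophages (chromosome 7, 101839988 to 101857190), stood at 28799, 22485 and 25563 in VAT and 10.2 and 10.6 in spleen (log2 11.13, SE 0.84, adjusted p = 6.71e-08). Lyve1, the hyaluronan receptor of macrophages along vessels, stood at 16109, 14636 and 11850 in VAT and 90.5 and 90.8 in spleen (log2 7.26, adjusted p = 2.43e-07). For each of these genes the lowest VAT library lay far above the higher spleen library. In fits without spleen replicate 1 and without replicate 2, the log2 was 12.36 and 13.70 for Retnla.

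The mannose receptor Mrc1 and the haemoglobin scavenger receptor Cd163 were also present in spleen. Mrc1 stood at 40880.2, 35249 and 31644 in VAT and 3997 and 3373 in spleen (log2 3.28, adjusted p = 6.26e-07), and Cd163 at 13512, 12394 and 11659.9 in VAT and 1800.4 and 994 in spleen (log2 3.22, adjusted p = 0.000475). Timd4, the receptor for phosphatidylserine on long-lived resident macrophages, stood at 3654, 2177 and 1508 in VAT and 774 and 452 in spleen. Its call (log2 1.95, adjusted p = 0.00756) was lost without spleen replicate 2 (adjusted p = 0.0827). Gas6, a bridge between dying cells and phagocytes, rose in VAT to 8253 ± 879.5 (SD, n = 3) from 17 ± 19.7 (SD, n = 2), and the galactose-binding lectin Mgl2 to 43752 ± 3172 from 243 ± 106. Pf4 stood at 47407, 37663 and 46753 in VAT and 3587 and 2949 in spleen (log2 3.75, adjusted p = 1.43e-07). The C-type lectin genes Cd209f and Cd209g, members of a family whose close copies may share reads, rose by a log2 of 12.14 and 12.62. The exceptions without a call were Fcna and Klf2. Fcna, a complement-activating lectin, stood at 19666, 18372 and 13165 in VAT and 15654 and 10168 in spleen, and the groups overlapped.

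Red pulp macrophage genes went the other way, with 9 of 15 lower in VAT and 2 higher (median log2 -1.88). Itgad, which encodes the integrin alpha D chain of red pulp macrophages (chromosome 7, 128173933 to 128205504), stood at 1 in every VAT library and at 3509 and 2274 in spleen, at least 871-fold lower in VAT. Slc40a1, the iron exporter ferroportin (chromosome 1, 45908070 to 45926532), stood at 2452, 2798 and 1781 in VAT and 63438 and 28177 in spleen (log2 -4.20, SE 0.29, adjusted p = 2.66e-08). Spic stood at 1988, 1672 and 1278 in VAT and 7343 and 4826 in spleen (log2 -1.88, adjusted p = 3.83e-06). Every VAT library lay below both spleen libraries in all of them, and Spic remained detectable in VAT. Cd5l, a lipid-binding protein secreted by macrophages, had a log2 of -4.47, the adhesion molecule Vcam1 of -2.05 and Nr1h3, the LXR alpha receptor for oxysterols, of -2.29, all called. Hmox1, which degrades haem, stood at 21907, 37028 and 15128 in VAT and 17801 and 8468 in spleen, where the groups overlapped, and it was not called (log2 0.91, adjusted p = 0.0611). It was called higher in VAT in 4 alternatives, among them DESeq2 (adjusted p = 0.0279) and without spleen replicate 1 (log2 1.45, adjusted p = 0.0182) or VAT replicate 3 (adjusted p = 0.0206). Siglec1, a sialic acid receptor of metallophilic macrophages, had a log2 of 3.00 without a call (adjusted p = 0.0582), but was called in 5 alternatives, edgeR (adjusted p = 0.0187) and DESeq2 (adjusted p = 0.0210) among them. In the spleen libraries the iron and adhesion genes were higher in replicate 1, with Vcam1 at 28480.5 and 17039. Neutrophil genes were high in the same spleen libraries, as given above, and their part in the red pulp difference was not tested. The log2 without spleen replicate 1 and 2 in turn was -3.61 and -4.78 for Slc40a1.

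Blood monocyte genes were lower in VAT in 8 of 14 cases and higher in 5. Ly6c2, a surface antigen of inflammatory monocytes, stood at 768, 726 and 257 in VAT and 7309.6 and 7504 in spleen (log2 -3.82, adjusted p = 9.30e-07). It is also expressed by some neutrophils or lymphocytes. Ccr2, the chemokine receptor that brings monocytes into tissue, was higher in VAT, at 21402, 27075 and 28813 in VAT and 6627 and 5965 in spleen (log2 2.02, adjusted p = 6.09e-06). Genes of lipid-associated macrophages were higher in VAT in 16 of 20 cases (median log2 3.65). Trem2, a lipid receptor that drives this state, stood at 3542, 2791 and 2861 in VAT and 243 and 161 in spleen (log2 3.94, SE 0.41, adjusted p = 2.06e-06). The 2 members that fell were Acp5, an acid phosphatase, with a log2 of -2.57, and the tetraspanin Cd9, with -1.39, a call lost without spleen replicate 1 (adjusted p = 0.0859). Of the genes of large peritoneal macrophages 7 of 13 were higher (4 without spleen replicate 1) and 1 lower in VAT, while Gata6, the factor that defines those cells, stood at 22.6, 1.93 and 23.1 in VAT and 1 and 1 in spleen and was not called (adjusted p = 0.0958), except in DESeq2 (adjusted p = 0.0247) and without VAT replicate 2 (adjusted p = 0.0261).

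**Figure D2:**
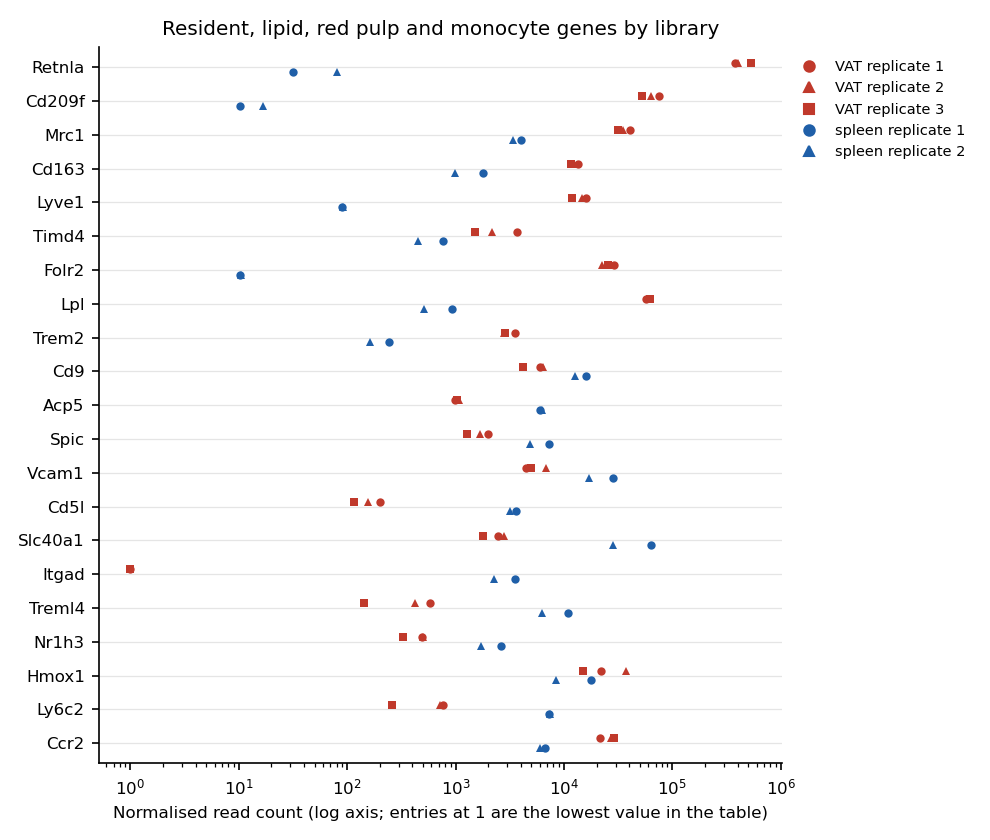
Normalised read counts (log axis) of fat-resident (Retnla to Folr2), lipid-associated (Lpl to Acp5), red pulp (Spic to Hmox1) and monocyte (Ly6c2 to Ccr2) genes, 1 point per library. VAT and spleen points stand apart for every gene drawn except Hmox1, and Itgad stands at 1 in all 3 VAT libraries.

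Transcription factors of the myeloid lineage were higher in VAT in 14 of 28 cases and lower in 6 (median log2 0.92). Klf4, a factor of alternative activation, stood at 13936, 9093 and 17080.2 in VAT and 1044 and 1245 in spleen (log2 3.50, adjusted p = 4.56e-06), and Maf, a factor of resident macrophages, at 8571, 7545 and 10256 in VAT and 1679 and 1589 in spleen (log2 2.42, adjusted p = 2.62e-05). Zeb2 and Bhlhe40 rose by a log2 of 2.07 and 2.28. Lower in VAT were Irf8, needed for monocytes and dendritic cells (log2 -1.58), Ets1, a factor of lymphocytes (log2 -4.08), and Nfe2, a factor of platelet-forming cells (log2 -4.67). Ets1 and Nfe2 moved with the lymphocyte and platelet markers above, whose part in it was not tested.

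How did lipid genes differ? Several genes of fatty acid entry and lipid transport were higher in VAT, whereas some genes of triglyceride synthesis and of lipolysis were lower. Lpl, the lipase that frees fatty acids from lipoproteins (chromosome 8, 68880555 to 68906932), stood at 57083, 62647 and 61932 in VAT and 934 and 509 in spleen (log2 6.45, SE 0.47, adjusted p = 5.02e-08). Cd36, a fatty acid and oxidised lipoprotein receptor, stood at 64252, 62332 and 48871 in VAT and 2684 and 1981 in spleen (log2 4.65, adjusted p = 3.38e-10), and Plin2, the coat of lipid droplets, at 59583, 53174 and 34077 in VAT and 6938 and 3914 in spleen (log2 3.19, adjusted p = 6.34e-08). In each of these all VAT libraries lay above both spleen libraries. Hilpda, an inhibitor of droplet lipolysis, and Fabp4, a fatty acid carrier, rose by a log2 of 5.18 and 5.19. Over the whole list of uptake and storage 9 of 26 genes were higher and 8 lower in VAT. Lower were Dgat2, the last enzyme of triglyceride synthesis (log2 -2.14, adjusted p = 6.23e-05), the lipase Pnpla2 (log2 -0.84, adjusted p = 0.000695) and the desaturase Scd1 (log2 -1.58, adjusted p = 0.00677), the last not called without spleen replicate 2 (adjusted p = 0.170). With spleen replicate 1 and then 2 left out, the log2 was 5.77 and 4.60 for Hilpda and -2.38 and -0.78 for Scd1.

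Of 27 cholesterol genes 9 were higher and 5 lower in VAT, beside 23.2% and 18.7% of all genes. Pltp, which transfers phospholipid between lipoproteins, stood at 77464, 81507 and 75449 in VAT and 899 and 971 in spleen (log2 6.38, SE 0.19, adjusted p = 5.85e-12). Apoe, the main apolipoprotein of macrophages, stood at 444355, 363202 and 329681 in VAT and 54696 and 36045 in spleen (log2 3.08, adjusted p = 8.86e-08). The exporters moved apart, since Abca1 was higher in VAT at 6000.1, 6118 and 6053 in VAT and 679 and 1099 in spleen (log2 2.81) and Abcg1 lower at 6462, 7194 and 5397 in VAT and 27331 and 13673 in spleen (log2 -1.62), both called. Ch25h, which makes 25-hydroxycholesterol, stood at 410.5, 189 and 166 in VAT and at 1 in both spleen libraries, at least 89.5-fold higher. Of 21 genes of fatty acid oxidation 10 were higher and 2 lower (1 without spleen replicate 1) in VAT, with Cpt1a, the carrier gate of mitochondria (log2 1.12), among the higher. Of 26 lysosomal genes 22 were higher and 1, the lysosomal master factor Tfeb, lower (log2 -2.04, adjusted p = 6.78e-06). The cathepsin Ctsl stood at 17861, 14444 and 12984 in VAT and 1054 and 1133 in spleen (log2 3.77, adjusted p = 1.12e-08), and Lamp1, a membrane protein of lysosomes, at 32806, 21299 and 22976 in VAT and 6124 and 6859 in spleen (log2 1.96, adjusted p = 1.84e-05). Their median log2 of 1.21 was close to that of the pan-macrophage list.

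How did opsonins, clotting factors and receptors for debris differ? Complement genes were higher in VAT in 13 of 21 cases and lower in 3 (median log2 2.05). The subunits of C1q, which tags immune complexes and dying cells, rose together. C1qa stood at 50642, 41739.6 and 52183 in VAT and 13613 and 8022 in spleen (log2 2.20), and C1qb and C1qc rose by a log2 of 2.43 and 2.05, all called. C3ar1, the receptor for the C3a fragment, stood at 34778, 29915 and 24456 in VAT and 365 and 112 in spleen (log2 7.18, SE 0.35, adjusted p = 9.70e-10), and C4b at 8726, 8351 and 7160.3 in VAT and 44.8 and 34.4 in spleen (log2 7.64, adjusted p = 5.17e-08). The inhibitor Serping1 rose by a log2 of 7.83. Lower in VAT was Cr2, the complement receptor of B cells and itself one of the B cell genes counted above. It stood at 24.7, 1.93 and 1 in VAT and 4696 and 7651 in spleen (log2 -10.14, adjusted p = 1.07e-06). When spleen replicate 1 or 2 was left out, the log2 came to 8.02 and 6.33 for C3ar1 and 5.73 and 9.93 for Serping1, respectively. In VAT, the log2 moved to -11.28 for Cr2 without VAT replicate 1 and -9.43 for Cr2 without VAT replicate 3.

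Of 16 clotting and fibrinolysis genes 15 were higher in VAT and none lower (median log2 3.62). F13a1, the chain that crosslinks fibrin, stood at 58089, 70978 and 35208 in VAT and 6737 and 3275 in spleen (log2 3.48, adjusted p = 4.48e-07). Tissue factor, F3, stood at 691, 873 and 638 in VAT and at 1 in both spleen libraries, at least 258-fold higher, and the urokinase gene Plau at 1676, 1317 and 1184 in VAT and 3.05 and 8.81 in spleen. The remaining member, the cofactor gene F5, had a log2 of 1.01 and was not called (adjusted p = 0.564), except in a fit of the 5 libraries of 3 months alone (adjusted p = 0.0257). Scavenger receptor genes were higher in VAT in 16 of 24 cases and lower in 5, or 2 without spleen replicate 1 and 3 without VAT replicate 3. The scavenger list also counts secreted proteins, Gas6, Pros1 and Mfge8 among the higher and Cd5l among the lower. Stab1, a receptor for modified proteins, stood at 6682, 6299 and 7329 in VAT and 156 and 12.3 in spleen (log2 7.21, adjusted p = 1.19e-05). Its relative Stab2, made by sinusoidal endothelium, stood at 1, 11.6 and 25.7 in VAT and 816 and 636 in spleen (log2 -6.36, adjusted p = 0.00101). C-type lectin and siglec genes were higher in 11 of 25 cases (7 without spleen replicate 2) and lower in 6. Clec1b, the platelet receptor CLEC-2, stood at 20.4, 9.63 and 27.0 in VAT and 2979 and 1382 in spleen (log2 -6.78, adjusted p = 6.28e-08). It is itself one of the megakaryocyte genes counted above. In fits without spleen replicate 1 and without replicate 2, the log2 was 8.98 and 5.43 for Stab1. With 1 VAT library left out, the log2 moved to -5.30 for Stab2 without VAT replicate 1 and -7.17 for Stab2 without VAT replicate 3.

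Which inflammatory ligands differed? Chemokine ligands were higher in VAT in 22 of 25 cases and lower in 2. Their median log2 was 5.30, or 5.16 with genes at 1 in both spleen libraries set to their bound, beside 0.07 over all genes. Ccl7 and Ccl2, ligands of Ccr2, are known to draw monocytes into tissue. Ccl7 (chromosome 11, 82045712 to 82047525) stood at 92606, 68249.5 and 75114 in VAT and 69.2 and 15.9 in spleen (log2 11.15, SE 0.64, adjusted p = 4.19e-09), and Ccl2 (chromosome 11, 82035577 to 82037452) at 133019, 99330 and 106763 in VAT and 69.2 and 109 in spleen (log2 10.32, SE 0.41, adjusted p = 1.53e-10). Both were high in all VAT libraries and near the low end of the table in both spleen libraries. The neutrophil attractants Cxcl1 and Cxcl2 followed. Cxcl2 stood at 98590.5, 91496 and 82832 in VAT and 82.4 and 70.5 in spleen (log2 10.20, adjusted p = 2.47e-13), Cxcl1 at 19329.6, 22568 and 22048 in VAT and 30.5 and 30.0 in spleen (log2 9.41, adjusted p = 9.52e-07), and Cxcl3 at 1108, 1330 and 848 in VAT against 1 in both spleen libraries, at least 385-fold higher. The 2 ligands that were lower were Ccl5, made mainly by T and NK cells, at 2798, 2994 and 2505 in VAT and 7731 and 7356 in spleen (log2 -1.45, adjusted p = 0.000804), and the platelet chemokine Ppbp, at 491, 272 and 155 in VAT and 7220.1 and 5082 in spleen (log2 -4.46, adjusted p = 0.000159). Chemokine receptors went the other way, with 6 of 25 higher (3 without spleen replicate 2) and 11 lower in VAT. The neutrophil receptor Cxcr2 stood at 97.8, 52.0 and 97.6 in VAT and 29035 and 17581 in spleen (log2 -8.14, adjusted p = 1.65e-09). The log2 without spleen replicate 1 and 2 in turn was 12.18 and 10.12 for Ccl7.

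Inflammatory cytokine genes and their regulators were higher in VAT in 19 of 26 cases and lower in 4, with a median log2 of 3.03, or 3.14 with genes at 1 in spleen at their bound. Il6 (chromosome 5, 30013114 to 30019975) stood at 5996, 7882 and 7979.6 in VAT and 1.02 and 64.3 in spleen (log2 9.30, SE 0.95, adjusted p = 1.70e-06), Tnf at 7270.2, 6534 and 6681 in VAT and 128 and 213 in spleen (log2 5.36, adjusted p = 2.14e-09), and the anti-inflammatory Il10 at 1893, 1957 and 1366 in VAT and 3.05 and 1.76 in spleen (log2 9.0, adjusted p = 2.51e-07). All 3 VAT libraries were high in each of them. The inhibitors of NF-kappa B that the pathway itself induces rose too, Nfkbia to 105454 ± 7837 (SD, n = 3) from 16197 ± 139 (SD, n = 2) and Tnfaip3 to 13407 ± 1599 from 694 ± 104. Il1a and Il1b differed in size. Il1a stood at 4884, 6675 and 3312 in VAT and 660.2 and 146 in spleen (log2 3.93, adjusted p = 3.21e-05). Il1b stood at 34875, 36740.4 and 34792 in VAT and 20449 and 20987 in spleen (log2 0.78, adjusted p = 0.0332), a call that was lost in 7 alternatives, among them without any single library of 3 months (adjusted p from 0.0628 to 0.124). The decoy receptor Il1r2 was lower in VAT, at 1978, 2032 and 1121 in VAT and 8734 and 4722 in spleen (log2 -1.96, adjusted p = 0.000188), as was Csf1, the growth factor of macrophages (log2 -1.79, adjusted p = 0.000541). With spleen replicate 1 and then 2 left out, the log2 was 6.79 and 11.81 for Il6 and 5.01 and 2.85 for Il1a.

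Immediate early genes, which cells switch on within minutes of a stimulus and which tissue digestion and sorting are also known to induce, were higher in VAT in 21 of 24 cases, and none was lower (median log2 2.61). Fosb stood at 19480, 14052 and 21278 in VAT and 116 and 80.2 in spleen (log2 7.53, SE 0.77, adjusted p = 1.74e-06), and Egr1 at 36318, 32008 and 31045 in VAT and 761 and 576 in spleen (log2 5.64, adjusted p = 1.04e-09). Atf3, a stress-induced repressor, stood at 62810.1, 56493 and 54298 in VAT and 1233 and 904 in spleen (log2 5.77, adjusted p = 1.59e-09). Every VAT library lay far above both spleen libraries in each of them. The list summed to 552807 to 705031 in VAT and 87482 and 137749.8 in spleen. Heat shock genes were higher in 9 of 15 cases and lower in none, with the inducible chaperone Hspa1a at 13879.6, 13072 and 11051 in VAT and 467 and 94.3 in spleen (log2 5.90, adjusted p = 1.05e-05), though reads of its near-identical neighbour Hspa1b may be shared. The constitutive chaperone Hspa8 had a log2 of 1.10 (adjusted p = 0.00189), a call lost under quantile normalisation (adjusted p = 0.292). These genes moved with the chemokines and cytokines in the same libraries, and their part in those differences was not tested. When spleen replicate 1 or 2 was left out, the log2 came to 7.05 and 4.75 for Hspa1a, respectively.

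**Figure D3:**
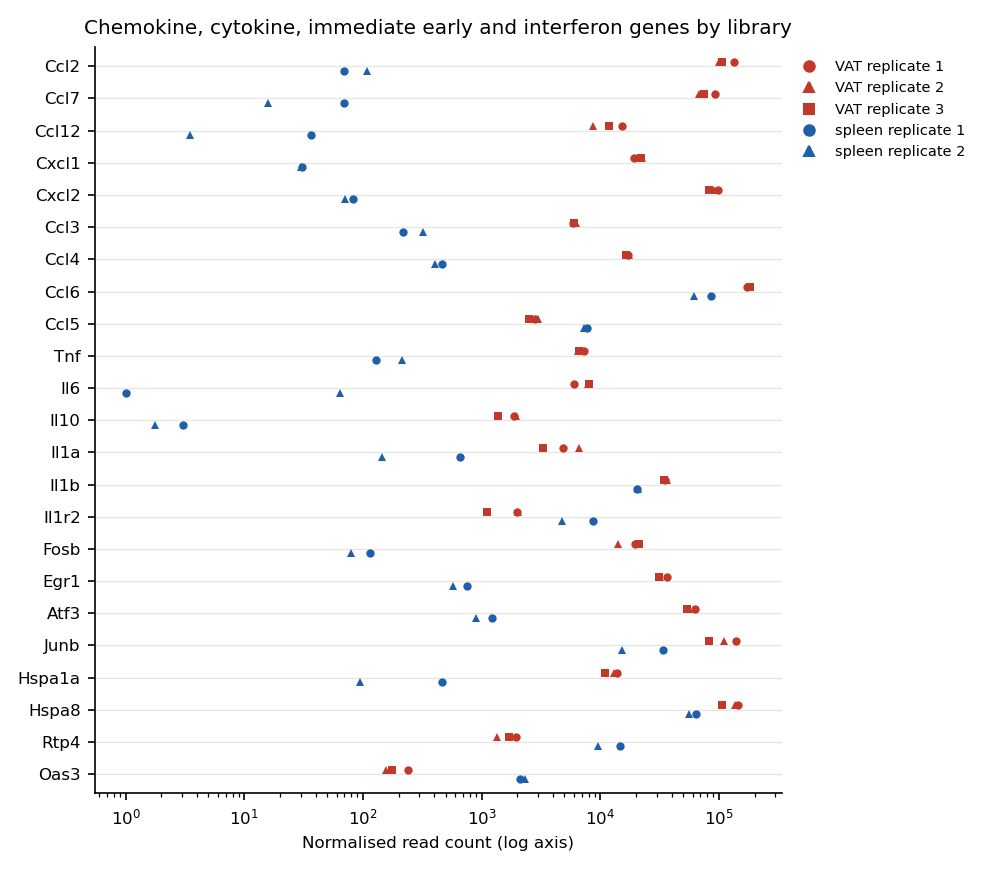
Normalised read counts (log axis) of chemokine (Ccl2 to Ccl5), cytokine (Tnf to Il1r2), immediate early (Fosb to Junb), heat shock (Hspa1a, Hspa8) and interferon (Rtp4 and Oas3) genes, 1 point per library. VAT points lie above spleen points except for Ccl5, Il1r2 and the interferon genes, and Il6 stands just above 1 in spleen replicate 1.

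The promoters of some of these ligands hold a kappa B motif, the site that NF-kappa B factors bind. The 250 bases before the transcription start were searched in RefSeq promoters (GRCm38.p6), for the letters GGGANTTTC on both strands. Of 10324 tested genes with a promoter in that set, 0.862% held it. It stood in 4 of 18 chemokine ligands with a promoter (Cxcl1, Cxcl2, Cxcl3 and Cxcl9) and in 3 of 19 cytokine genes and regulators (Il6, Csf1 and Nfkbia). Of these, Csf1 was lower in VAT, Cxcl9 was not called (log2 0.73, adjusted p = 0.313) and the others were higher. The sequences are shown for the genes with the largest differences, 5′ to 3′ along the gene, with the match in capitals. They lie at chr5:90890995-90891244 for Cxcl1, chr5:90903649-90903898 for Cxcl2, chr5:90785851-90786100 for Cxcl3 and chr5:30012864-30013113 for Il6, all on the plus strand.
Cxcl1: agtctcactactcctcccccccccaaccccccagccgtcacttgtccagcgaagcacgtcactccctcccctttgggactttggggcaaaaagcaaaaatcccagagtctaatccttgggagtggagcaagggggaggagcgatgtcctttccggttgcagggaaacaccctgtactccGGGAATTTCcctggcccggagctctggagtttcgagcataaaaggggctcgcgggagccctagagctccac
Cxcl2: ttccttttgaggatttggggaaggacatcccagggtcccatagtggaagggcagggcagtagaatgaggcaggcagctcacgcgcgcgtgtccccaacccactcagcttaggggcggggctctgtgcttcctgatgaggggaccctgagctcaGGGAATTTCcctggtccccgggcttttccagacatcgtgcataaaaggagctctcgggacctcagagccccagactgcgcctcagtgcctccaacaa
Cxcl3: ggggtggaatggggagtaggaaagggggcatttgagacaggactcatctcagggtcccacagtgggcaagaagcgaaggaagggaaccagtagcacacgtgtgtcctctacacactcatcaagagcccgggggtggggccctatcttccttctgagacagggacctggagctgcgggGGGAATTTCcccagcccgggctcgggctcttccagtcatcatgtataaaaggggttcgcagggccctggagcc
Il6: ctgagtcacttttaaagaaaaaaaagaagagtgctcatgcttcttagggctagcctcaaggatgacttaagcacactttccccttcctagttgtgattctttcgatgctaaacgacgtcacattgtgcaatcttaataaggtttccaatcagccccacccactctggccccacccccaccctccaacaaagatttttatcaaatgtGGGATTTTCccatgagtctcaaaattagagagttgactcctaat
The match began 71, 97, 73 and 44 bases before the start of Cxcl1, Cxcl2, Cxcl3 and Il6. A match of letters is a description, and binding was not measured.

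Did antigen presentation and interferon genes follow? Most genes on the class II presentation list were higher in VAT, and most interferon-induced genes were lower. The class II list also holds Ctss, Cd86, Cd80 and Cd40, which encode no class II chain and were all called higher. The class II chain genes themselves went both ways. Of 15 genes of MHC class II presentation 10 were higher in VAT and 5 lower, or 3 lower without spleen replicate 2 or VAT replicate 2 (median log2 1.45). H2-Ab1 (chromosome 17, 34263227 to 34269418) stood at 430008, 427384 and 456035 in VAT and 134334 and 129120 in spleen (log2 1.73, SE 0.19, adjusted p = 3.76e-06), and Cd74, the invariant chain, at 1285440, 1399260 and 1246730 in VAT and 515755 and 424225 in spleen (log2 1.48, adjusted p = 0.000322). H2-Aa and H2-Eb1 rose by 1.90 and 1.97, and the co-stimulatory gene Cd86 by 1.52. H2-Eb2, another class II beta chain, was lower (log2 -3.65, adjusted p = 0.0221), a call lost without VAT replicate 2 or 3 (adjusted p = 0.0602 and 0.0577) and without spleen replicate 2 (adjusted p = 0.135). The 5 that fell also include the subunits of H2-O, which restrains peptide loading in B cells, H2-Oa (log2 -3.09) and H2-Ob (log2 -2.80). The class II transactivator Ciita was lower in VAT too, at 1915, 1909.7 and 2597 in VAT and 4883 and 4768 in spleen (log2 -1.19, adjusted p = 4.56e-05). B cells, whose markers were lower in VAT as given above, also express H2-O and Ciita, and their part in this was not tested.

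Type I interferon genes were lower in VAT in 17 of 25 cases, and none was higher (median log2 -1.27). Without spleen replicate 1 the lower genes numbered 13, and without replicate 2 they numbered 16. Rtp4, an interferon-induced chaperone of receptors (chromosome 16, 23520219 to 23614222), stood at 1956, 1362 and 1716 in VAT and 14563 and 9671 in spleen (log2 -2.84, SE 0.26, adjusted p = 5.55e-07). Oas3, a sensor of double-stranded RNA (chromosome 5, 120753098 to 120777684), stood at 239.6, 156 and 176 in VAT and 2104 and 2325 in spleen (log2 -3.55, adjusted p = 1.34e-06). Spleen was above VAT in every library pair of both genes. The antiviral gene Rsad2 stood at 1101, 817 and 745 in VAT and 2835 and 2603 in spleen (log2 -1.63, adjusted p = 0.000427). Ifit1, which binds foreign RNA caps, stood at 905, 846 and 1083 in VAT and 3289.6 and 1569 in spleen (log2 -1.27, adjusted p = 0.00471), and its call was lost without spleen replicate 1 (adjusted p = 0.122).

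In the same RefSeq promoters the interferon-stimulated response element was searched as GAAANNGAA on both strands. It was held by 6.64% of the 10324 promoters and by 8 of the 18 interferon genes with a promoter in the set. Of these 8, Isg15, Oas1a and Ifih1 were not called (log2 0.31, 0.13 and 0.17). The others, Ifit1, Ifit3, Oas3, Rsad2 and Stat2, were lower in VAT. The promoters of Ifit1, Rsad2 and Oas3 are shown as examples of genes that were lower, with matches in capitals. They lie at chr19:34640639-34640888 (plus strand), chr12:26456453-26456702 (minus strand) and chr5:120777660-120777909 (minus strand).
Ifit1: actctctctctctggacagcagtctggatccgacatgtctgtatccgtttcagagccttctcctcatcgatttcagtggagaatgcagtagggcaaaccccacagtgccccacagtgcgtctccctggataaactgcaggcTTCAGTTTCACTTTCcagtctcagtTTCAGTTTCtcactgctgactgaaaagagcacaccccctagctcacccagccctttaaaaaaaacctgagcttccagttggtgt
Rsad2: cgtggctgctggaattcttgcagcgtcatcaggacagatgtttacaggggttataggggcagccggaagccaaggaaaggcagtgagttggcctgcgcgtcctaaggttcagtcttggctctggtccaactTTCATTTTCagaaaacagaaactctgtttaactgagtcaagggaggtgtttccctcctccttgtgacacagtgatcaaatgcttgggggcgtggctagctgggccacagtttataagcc
Oas3: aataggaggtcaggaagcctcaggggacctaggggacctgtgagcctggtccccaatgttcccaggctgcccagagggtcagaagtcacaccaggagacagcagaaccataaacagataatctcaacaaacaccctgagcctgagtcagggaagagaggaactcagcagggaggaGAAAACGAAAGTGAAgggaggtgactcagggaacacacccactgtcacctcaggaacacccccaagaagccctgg
Ifit1 held 3 matches, 2 of them overlapping, and the nearest began 84 bases before the start. In Rsad2 1 match began 119 bases before it, and in Oas3 2 overlapping matches began 75 and 69 bases before it. These starts are those of the promoter set, and for Oas3 that start lies inside the gene span given above.

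How did iron, redox and sugar genes differ? Of 24 genes of iron and haem handling 17 were higher in VAT and 4, Slc40a1, Steap4, Hp and Lcn2, were lower. Tfrc, the transferrin receptor, stood at 3304, 2779 and 3084 in VAT and 458 and 432 in spleen (log2 2.77, adjusted p = 1.16e-05), the endosomal iron transporter Slc11a2 at 2396, 2395 and 2213 in VAT and 399 and 329 in spleen (log2 2.68, adjusted p = 9.17e-06), and ceruloplasmin, Cp, a ferroxidase of iron export, at 2558, 2581 and 2231 in VAT and 10.2 and 45.0 in spleen (log2 6.76, adjusted p = 1.23e-07). Those 3 genes were higher in every VAT library. The ferritin light chain Ftl1 stood at 440043, 399142 and 411936 in VAT and 186325 and 144810 in spleen (log2 1.34, adjusted p = 0.000229), and the heavy chain Fth1 at 242497, 233422 and 222672 in VAT and 148065 and 127108 in spleen (log2 0.76, adjusted p = 0.00771). Under quantile normalisation neither was called, and Fth1 changed sign (log2 -0.08, adjusted p = 0.802). The call of Fth1 was also lost without spleen replicate 2 (adjusted p = 0.0565). Besides ferroportin, the genes lower in VAT included the metalloreductase Steap4 (log2 -1.66, adjusted p = 0.0164, or 0.173 without spleen replicate 1), Lcn2, a siderophore trap of neutrophils, at 43.0, 65.5 and 27.0 in VAT and 17374 and 30066 in spleen, and haptoglobin, Hp, at 1172, 1452 and 973 in VAT and 82127 and 51663 in spleen. Lcn2 is itself one of the neutrophil genes counted above, and Hp was lower in VAT as they were. In fits without spleen replicate 1 and without replicate 2, the log2 was 5.74 and 7.78 for Cp.

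Antioxidant genes were higher in VAT in 10 of 24 cases and lower in 5. Srxn1, a target of the factor NRF2 (log2 4.41), thioredoxin reductase Txnrd1 (log2 2.76) and the secreted peroxidase Gpx3 (log2 4.21) were higher, and glutathione reductase Gsr, abundant in neutrophils, was lower at 2263, 1962 and 1315 in VAT and 27163 and 23310.2 in spleen (log2 -3.80, adjusted p = 4.02e-07). Glycolysis genes showed no common direction, with 5 of 23 higher and 7 lower (median log2 -0.09), the latter 3 without spleen replicate 1 or VAT replicate 3. The glucose transporter Slc2a3 stood at 632, 665 and 469 in VAT and 9338 and 8425 in spleen (log2 -3.93, adjusted p = 1.30e-05), while hexokinase Hk2 was higher in VAT (log2 1.16, adjusted p = 0.00300). Arginine genes were higher in 7 of 15 cases and lower in 2 (1 without spleen replicate 1). The pair of arginases moved apart, with Arg1, the enzyme of alternative activation, at 1905, 3335 and 609 in VAT and 19.3 and 15.9 in spleen (log2 6.41, SE 1.27, adjusted p = 0.000811) and mitochondrial Arg2 at 614, 884 and 478 in VAT and 5311 and 3213 in spleen (log2 -2.69, SE 0.39, adjusted p = 4.99e-05). In VAT, the log2 moved to 7.09 for Arg1 without VAT replicate 3.

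Which growth factor, matrix and adhesion genes differed? Growth factor genes were higher in VAT in 18 of 29 cases and lower in 1 (median log2 2.64, or 2.69 with genes at 1 at their bound). Areg, an EGF receptor ligand made for tissue repair (chromosome 5, 91139599 to 91148432), stood at 5468, 5453 and 5549 in VAT and 1.02 and 1 in spleen, a ratio of 11566 with a counting interval of 2076 to 456836 on 1 spleen read. Hbegf, another ligand of that receptor, stood at 5332, 4099.7 and 4798 in VAT and 68.2 and 17.6 in spleen (log2 7.04, adjusted p = 7.74e-05), and Igf1 at 13995, 12654 and 11697 in VAT and 3352 and 2794 in spleen (log2 2.06, adjusted p = 6.07e-06). All were higher in every VAT library. Tgfbr1, a receptor for TGF-beta, was the gene that fell (log2 -0.73, adjusted p = 0.0326), a call lost in 7 alternatives, among them without either spleen library (adjusted p = 0.192 and 0.0522). With spleen replicate 1 and then 2 left out, the log2 was 7.98 and 6.09 for Hbegf.

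Matrix and protease genes were higher in 20 of 27 cases and lower in 3 (median log2 4.53). Fn1, fibronectin, stood at 50888, 68028 and 73064 in VAT and 3719 and 4599 in spleen (log2 3.93, adjusted p = 6.11e-07), and the macrophage elastase Mmp12 at 7111, 6442 and 4773 in VAT and 126 and 211 in spleen (log2 5.2, adjusted p = 2.21e-07). Collagens rose as well, with Col3a1, itself one of the fibroblast genes counted above, by a log2 of 8.65. The neutrophil collagenase Mmp8 and gelatinase Mmp9 were lower in VAT (log2 -9.02 and -2.0), and both are themselves among the neutrophil genes counted above. Of 27 genes of integrins and adhesion molecules 7 were higher and 11 lower in VAT. Itgal, the lymphocyte integrin LFA-1 chain, stood at 1048, 971 and 1034 in VAT and 14095 and 15319 in spleen (log2 -3.85, adjusted p = 1.33e-09), whereas Icam1, its ligand, stood at 25669, 28025 and 23398 in VAT and 2194 and 2141 in spleen (log2 3.56, adjusted p = 1.53e-10). In VAT, the log2 moved to -9.82 for Mmp8 without VAT replicate 2 and -8.04 for Mmp8 without VAT replicate 3.

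How did genes of catecholamine breakdown and of the inflammasome stand in young tissue? Of 12 tested genes on the catecholamine breakdown list 10 were higher in VAT and none lower (median log2 1.82). Over all genes 23.2% were called higher. The list also holds genes not particular to catecholamines. Among them are Renbp, Aldh1a1 and Aldh1a3 (log2 1.68, 4.66 and 6.07), all called higher. Maoa, the monoamine oxidase that starts the breakdown of noradrenaline (chromosome X, 16619698 to 16687812), stood at 1293, 987 and 955 in VAT and 2.03 and 45.8 in spleen. Its log2 was 6.49 (SE 1.13, adjusted p = 0.000277). All VAT libraries were high, and in spleen nearly all reads came from replicate 2. Sult1a1, which adds sulphate to phenols, stood at 3682, 3842 and 3689 in VAT and 459 and 253 in spleen (log2 3.45, adjusted p = 4.36e-05). The aldehyde-handling enzymes Aldh9a1 and Akr1a1 rose by 1.77 and 1.29, and Maob stood at 15.0, 149 and 56.5 in VAT against 1 in both spleen libraries. Aldh2, the mitochondrial aldehyde dehydrogenase, stood at 7531, 8574 and 6694 in VAT and 9695 and 8173 in spleen, with overlapping groups and no call (log2 -0.24, adjusted p = 0.332), though it was called lower in VAT under quantile normalisation (adjusted p = 0.0411). The adrenergic receptor Adrb1 was lower in VAT, at 7.52, 28.9 and 2.57 in VAT and 126 and 76.7 in spleen (log2 -3.36, adjusted p = 0.00942), and was not called in edgeR (adjusted p = 0.0652) or without spleen replicate 1 (adjusted p = 0.0760). Most fibroblast and fat cell markers were higher in the same VAT libraries, and their part in the Maoa difference was not tested. In fits without spleen replicate 1 and without replicate 2, the log2 was 4.51 and 8.46 for Maoa. With 1 VAT library left out, the log2 moved to -4.17 for Adrb1 without VAT replicate 2 and -2.64 for Adrb1 without VAT replicate 3.

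Inflammasome genes showed little common direction, with 5 of 20 higher and 2 lower in VAT (median log2 0.30), beside 23.2% and 18.7% of all genes. Nlrp3 itself (chromosome 11, 59541569 to 59566955) stood at 3092, 3451 and 3308 in VAT and 1257 and 699.9 in spleen (log2 1.8, SE 0.28, adjusted p = 9.78e-05). Casp4, the caspase of the non-canonical pathway, and P2rx7, the ATP receptor upstream of Nlrp3, rose by 1.89 and 2.10. Casp1, the protease that the complex activates, stood at 2329.6, 2117 and 2525 in VAT and 2594 and 1394 in spleen, with overlapping groups (log2 0.29, adjusted p = 0.336). Here the spleen libraries disagreed, since the log2 was 0.73 (adjusted p = 0.0212) without spleen replicate 1 and -0.16 without replicate 2. Gsdmd, the pore protein, had a log2 of 0.30 (adjusted p = 0.193). Il18 was lower in VAT (log2 -1.33, adjusted p = 0.000850). Gdf3, a ligand of the TGF-beta family, stood at 479, 345 and 321 in VAT and 88.5 and 108 in spleen (log2 1.93, adjusted p = 0.00835), not called without spleen replicate 1 (adjusted p = 0.0567).

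**Figure D4:**
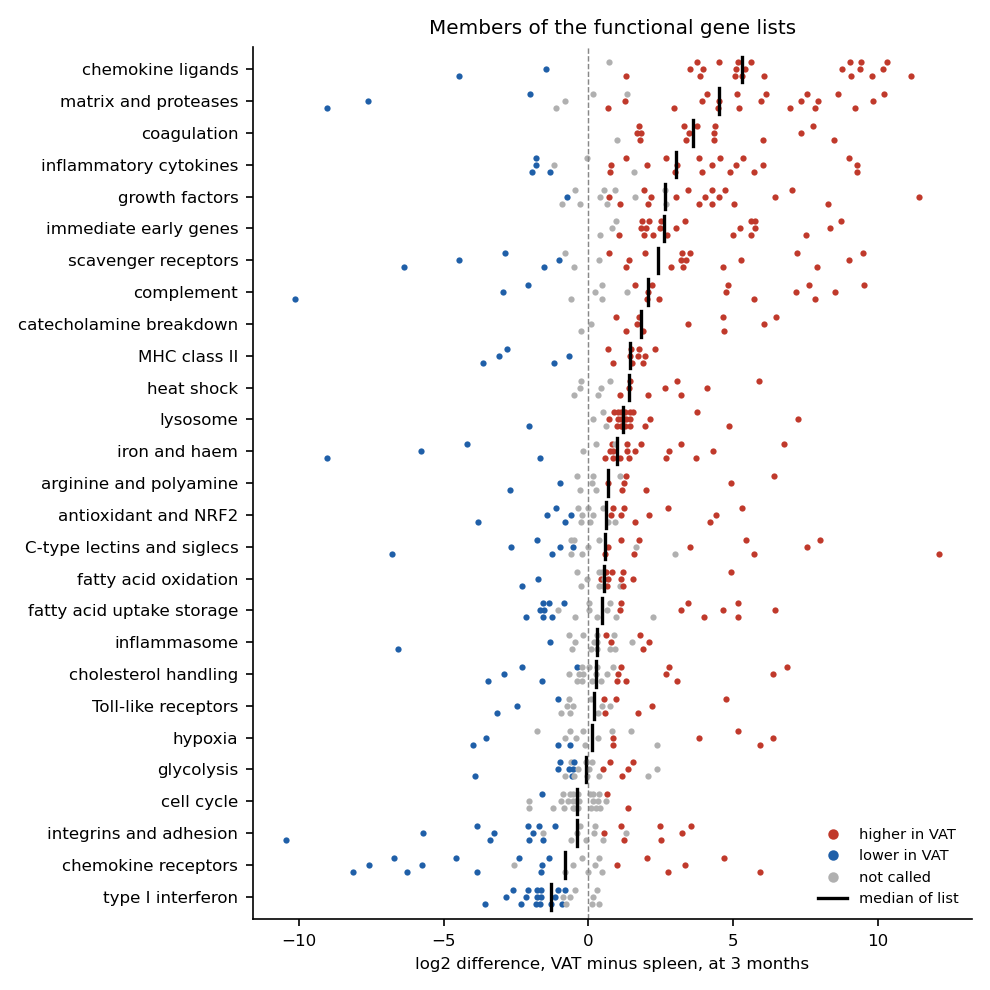
Log2 difference (VAT minus spleen, 3 months) of every tested member of the functional gene lists, 1 point per gene, coloured by call, with the median of each list as a black bar. The adrenergic receptor list, with 2 tested genes and a median of -2.29, is not drawn. Medians of the lists drawn run from -1.27 for type I interferon genes to 5.30 for chemokine ligands, and most lists hold members on both sides of 0.

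Which single genes differed most? Among called genes with a mean of at least 1000 in the higher tissue, the largest rises in VAT were Fcrls, Retnla, Cd209g, Cd209f, Emp1, Areg, Flrt3, Ccl7, Folr2 and Ednrb. Fcrls, an Fc receptor-like protein known from resident macrophages and microglia (chromosome 3, 87250736 to 87263765), stood at 40542, 46410.4 and 55225 in VAT and 2.03 and 1 in spleen, a ratio of 49923 with a counting interval of 13820.1 to 412229.5 on 2 spleen reads. Ednrb, an endothelin receptor, stood at 22104, 19234 and 10983 in VAT and 5.09 and 9.70 in spleen (log2 11.02, SE 0.57, adjusted p = 1.51e-09), and Emp1, a membrane protein of epithelial and other cells, at 13930.1, 10078 and 11953 in VAT and 2.03 and 4.41 in spleen (log2 11.52, SE 0.63, adjusted p = 2.65e-09). Flrt3, a guidance receptor ligand, stood at 1 in both spleen libraries and was at least 1791-fold higher in VAT. The largest falls included Ngp, Camp, Ltf, Elane, Fcnb, Mpo, Itgad, Cr2 and Stfa2l1. Of these, 7 encode granule or cytosolic proteins of neutrophils and their precursors. Elane, neutrophil elastase, stood at 1, 9.63 and 1 in VAT and 15955 and 18561 in spleen (log2 -12.27, adjusted p = 6.26e-09), and Mpo, myeloperoxidase, at 1, 13.5 and 1 in VAT and 9379 and 12280 in spleen (log2 -11.44, adjusted p = 7.36e-07). Stfa2l1 belongs to a family of near-identical stefins that may share reads. The exceptions among these were the B cell gene Cr2 and the red pulp integrin Itgad. In VAT, the log2 moved to -13.07 for Elane without VAT replicate 2 and -12.39 for Mpo without VAT replicate 2.

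Did the difference return at 24 months? The 24-month libraries share no library with the 3-month comparison, though all 13 were fitted together. At 24 months 6726 genes were called (49.1%), and 4358 were called in the same direction at both ages. That is 75.9% of the calls at 3 months and 64.8% of the calls at 24 months. In opposite directions 46 genes were called, and 1341 called at 3 months were not called at 24 months. Across genes, which are not independent replicates, the log2 differences of both ages had a Pearson r of 0.854. Of the 25 fat-resident genes 23 were called again, of the 25 chemokine ligands 24, of the 24 immediate early genes 21 and of the 16 neutrophil genes 15. Maoa had a log2 of 8.74 at 24 months (adjusted p = 7.03e-07), Retnla of 13.24, Ccl7 of 11.22 and Slc40a1 of -3.12, each called in the direction seen at 3 months.

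A tissue by age interaction tests whether the difference itself changed, and was called in 375 genes (2.74%), with 2292 at an unadjusted p under 0.05. The difference lay more towards VAT at 3 months in 188 of them and more towards spleen in 187. That count was 798 in DESeq2 and 186 in limma without a trend, and it ranged from 123 without 3-month VAT replicate 3 to 655 without 3-month spleen replicate 2. Of the interferon genes 15 of 25 were called, all with a difference further towards spleen at 3 months. Of those 25, 8 were called at 24 months in the direction of 3 months, and the median log2 there was 0.25. Rtp4 went from a log2 of -2.84 at 3 months to -0.05 at 24 months (difference of differences -2.79, SE 0.33, adjusted p = 0.00103). It stood at 2706 to 4672 in the 24-month VAT libraries and at 2999 to 4896 in the 24-month spleen libraries. Rsad2 went from -1.63 to 0.89 (adjusted p = 0.00309), which is a change of sign.

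Genes on the MHC class II presentation list moved the other way. In the interaction 7 of 15 were called, all with a difference further towards VAT at 3 months. H2-Ab1 went from 1.73 to 0.17 (difference of differences 1.57, SE 0.24, adjusted p = 0.00357), and stood at 226902 to 312962 in VAT and 205848 to 237480 in spleen at 24 months. H2-DMb2, a chain that edits class II peptides, went from -0.66 to -3.45 (difference of differences 2.79, adjusted p = 0.00103). Its 3-month call (adjusted p = 0.0353) was lost in 6 alternatives, among them without either spleen library. Other genes with the smallest interaction p included 6 with a difference further towards VAT at 3 months. Ccl22, an attractant of regulatory T cells, went from 5.42 to 1.92, Sdc1, a proteoglycan of plasma cells and macrophages, from 3.23 to -0.08, Tm4sf1, an endothelial surface protein, from 8.39 to 3.00 and Slc3a2, a subunit of amino acid transporters, from 2.59 to 1.05, all with adjusted p = 0.00103. At the same adjusted p, the exchange factor gene Net1 went from 1.25 to -1.93, a change of sign, and the protease gene Napsa from -1.22 to -2.84. The 3-month call of Net1 was lost without spleen replicate 1 (adjusted p = 0.0883). Trem2 went from 3.94 to 7.17, a wider gap at 24 months (difference of differences -3.23, SE 0.52, adjusted p = 0.00450). Endothelial markers, 11 of 14 higher in VAT at 3 months, had 3 of 14 called in the interaction, all further towards VAT at 3 months. With spleen replicate 1 and then 2 left out, the log2 was 7.80 and 8.98 for Tm4sf1.

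**Figure D5:**
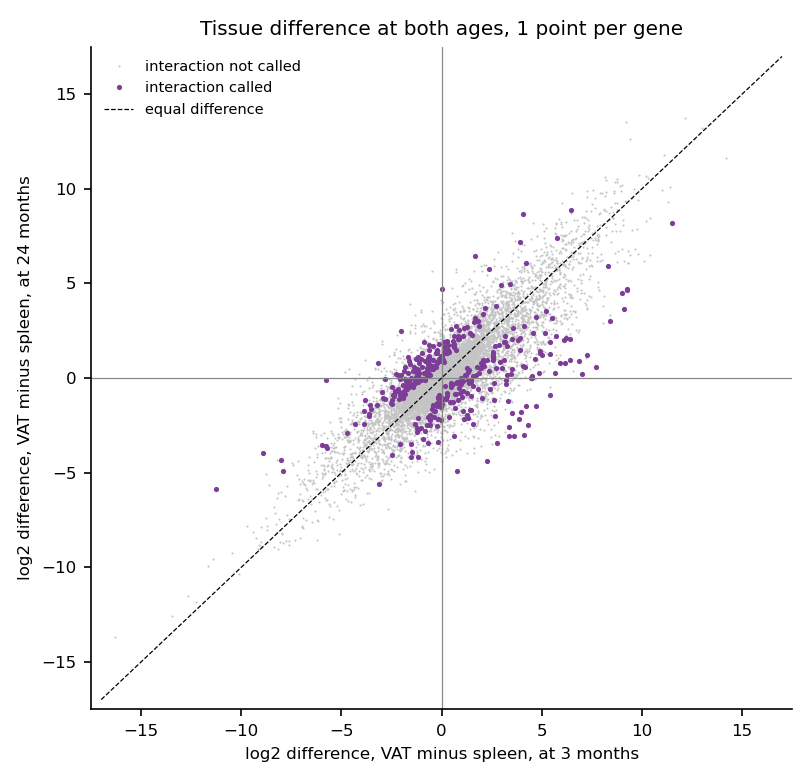
Log2 difference between VAT and spleen at 3 months (horizontal axis) and at 24 months (vertical axis), 1 point per gene tested (13702), with the 375 genes called in the tissue by age interaction in purple. Points follow the dashed line of equal difference (Pearson r of 0.854 across genes), and 135 of the purple points have opposite signs at the 2 ages.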

How the data were processed

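RNA from sorted macrophages was measured in 13 wild-type libraries, made strand-specific from poly-A RNA per the labels' protocols. CASAVA 1.8.2, TopHat, Partek and DESeq2 with mm10 are named per the submitters' processing notes, and how reads were counted, and on which strand, is not given in the sources used here. The deposited signal per gene is a normalised read count made by the authors. From it whole reads were recovered (in the 3-month libraries 99.8% to 100% of entries below 20000 reads came out whole, with a tolerance of 0.05 read), with entries at 1 taken as 0 reads. In libraries whose step was under 1, an entry of 1 can also stand for 1 read.

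A mean of 10 or more across the 13 libraries was required (13702 of 13954 genes). Log2(value + 1) was fitted with a mean-variance trend by limma 3.58.1 (R 4.3.3) and a mean per group over all 13 libraries, because the 3-month spleen group has 2. Differences on this scale understate changes of low genes. Tests were two-sided. On simulated data of 13702 genes, 100 were changed by a log2 of 1 and 100 by 2. The fit recovered 15% and 55% of them. In the real comparison 5745 genes were called, which makes the Benjamini-Hochberg cut less strict. The simulated shares therefore do not measure how many real differences were found. Where a gene stood at 1 in a whole group, the fold was taken against a floor of 3 reads, averaged over its libraries. Alternatives were edgeR 4.0.16, DESeq2 1.42.0, other scalings, pseudocounts (0.5 and 10), filters, spreads, a replicate block and leaving out each library.

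The members and the 52 gene lists were chosen with earlier results of these data known. Genes named are list members, the 10 largest rises and falls among called genes with groups apart and a mean of at least 1000 in the higher tissue, the 10 genes with the smallest interaction p at such a mean in any group, and Nlrp3, Casp1, Il1b, Maoa, Gdf3, Itgam and Adgre1. Some genes of these lists are not reported here. Coordinates come from RefSeq for GRCm38.p6, the same assembly as mm10, by symbol (13249 of 13954 matched).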

Additional observations from a re-analysis of the deposited data

Results flagged for a closer look

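The tissue difference at 3 months differed from that at 24 months, by the interaction in limma, for 25 of the genes named, at adjusted p from 0.00103 to 0.0387. The values below are the log2 difference at 3 months minus that at 24 months. A value below 0 means that the difference lay further towards spleen in the young mice. Among interferon genes it was Rtp4 -2.79 (SE 0.33), Rsad2 -2.52 (SE 0.38), Ifit1 -2.28 (SE 0.40) and Oas3 -2.14 (SE 0.45). Among genes of MHC class II presentation it was H2-Ab1 1.57 (SE 0.24), H2-Aa 1.36 (SE 0.21), H2-Eb1 1.46 (SE 0.21), H2-DMb2 2.79 (SE 0.30) and Ciita 0.91 (SE 0.21). In both lists the 3-month difference itself was below 0 for the interferon genes, H2-DMb2 and Ciita, and above 0 for the others.

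The value was also below 0 for Trem2 -3.23 (SE 0.52), Steap4 -2.76 (SE 0.65), Clec4d -2.29 (SE 0.29), Hp -2.17 (SE 0.38), Gpx3 -1.85 (SE 0.29), Mgst1 -1.78 (SE 0.22) and Atf3 -1.62 (SE 0.38). Of these, Trem2, Gpx3 and Atf3 were higher in VAT at 3 months and the others lower. Clec4d encodes a C-type lectin receptor of myeloid cells and Mgst1 a membrane-bound glutathione transferase. The value was above 0 for Icam1 0.93 (SE 0.18), Ccr2 1.30 (SE 0.30), Slc3a2 1.55 (SE 0.18), Napsa 1.63 (SE 0.19), Net1 3.18 (SE 0.40), Sdc1 3.31 (SE 0.41), Emp1 3.32 (SE 0.80), Ccl22 3.50 (SE 0.41) and Tm4sf1 5.39 (SE 0.65), all higher in VAT at 3 months except Napsa, which was lower. Napsa encodes an aspartic protease and Net1 a guanine nucleotide exchange factor. Without spleen replicate 1 of 3 months, 16 of the 25 remained called, and the adjusted p of the others was Steap4 0.188, Ifit1 0.0596, Hp 0.0570, Oas3 0.0794, Atf3 0.182, Ciita 0.118, Icam1 0.0518, Ccr2 0.0951 and Emp1 0.184. Without spleen replicate 2, 23 remained called, and the adjusted p of the others was Ciita 0.0650 and Ccr2 0.0694. Neutrophil, B cell and stromal markers also differ between the tissues, as given above, and their part in these changes was not tested.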

How the results depend on the processing

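The counts of genes called between the tissues kept within 1.5 times of 5745 in every alternative, from 4398 to 5802 (5293 in edgeR, 5798 in DESeq2), and leaving out 1 library of 3 months gave 4398 to 5032 in all, 2581 to 2840 higher and 1817 to 2245 lower in VAT. Of the genes called, 55.3% were higher in VAT, and 49.1% under quantile normalisation. The share called again at 24 months was 75.86%, and 72.59% to 82.88% with 1 library left out. The interaction count of 375 was 798 in DESeq2, 186 without a trend, 218 with a weight per group, and 123 to 655 with 1 library left out. Leaving out spleen replicate 1 of 3 months gave 135 and replicate 2 gave 655. It fell without VAT replicates 1, 2 and 3 of 3 months to 206, 171 and 123, VAT replicates 2 and 3 of 24 months to 211 and 247, and spleen replicates 2 and 3 of 24 months to 249 and 224. The cause was not tested. With the replicate number as a block, 5550 genes were called between the tissues and 328 in the interaction. At 3 months, same-numbered VAT and spleen libraries had deviations that correlated at 0.0045 and -0.0157. With 2 spleen libraries, whose deviations mirror each other, these values cannot show whether equal numbers mark a pair. At 24 months the same-numbered libraries correlated at 0.0040, 0.0279, 0.0320 and 0.0769. Libraries with unlike numbers ranged from -0.0654 to 0.0390. Whether equal numbers stand for the same animal was not tested. Of 181 named genes called, 161 kept call and direction in every alternative, 12 lost the call without spleen replicate 1 and 9 without replicate 2. These checks of single genes, and those of list counts, took in no fit without a 24-month library. They also passed over a gene where an alternative filtered it out or gave it no adjusted p. Fth1 turned from 0.76 to -0.075 under quantile normalisation, and Casp1, at 0.29 and not called, ranged from -0.16 without spleen replicate 2 to 0.73 without replicate 1. Some list counts moved by over 1.5 times. With a filter at 100 fat cell genes higher in VAT fell from 7 to 4, endothelial genes from 11 to 7 and mesothelial genes from 5 to 0 (fewer genes tested). In edgeR the mesothelial count was 3, and with the 5 libraries of 3 months alone the plasma cell counts were 2 higher and 2 lower in place of 4 and 4. Leaving out a spleen library moved the log2 of 24 named genes called by over 1.5 times. Ccl6 was not called under quantile normalisation (adjusted p = 0.0550), and Hspa1b not without either spleen library or VAT replicate 3. Genes near the floor of 3 reads are limited by depth.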

Other observations

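Cell cycle genes gave few calls between the tissues, with 2 of 28 higher in VAT (1 without either spleen library) and 1 lower (0 without spleen replicate 1) (median log2 -0.39). Pcna, the clamp of DNA replication, was higher in VAT at 5613, 5672 and 7453 in VAT and 2219 and 2615 in spleen (log2 1.36, adjusted p = 6.29e-06), whereas Mki67, a marker of cycling cells, stood at 2016, 2474 and 3881 in VAT and 3429 and 4471 in spleen with overlapping groups and no call (adjusted p = 0.133, or 0.0293 without VAT replicate 3).

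Toll-like receptor genes and their adaptors were higher in VAT in 6 of 18 cases and lower in 3, with a median log2 of 0.21 that turned to -0.20 under quantile normalisation. These counts, and those of the hypoxia genes below, lay near the shares over all genes, 23.2% higher and 18.7% lower. Tlr2, which senses bacterial lipoproteins, stood at 7054, 8232 and 6245 in VAT and 1493 and 1626 in spleen (log2 2.19, adjusted p = 4.76e-06). Hypoxia genes were higher in 6 of 20 cases and lower in 4, or 2 without either spleen library. Epas1, which encodes HIF-2 alpha, stood at 510.4, 499 and 932 in VAT and 1 and 50.2 in spleen (log2 5.94, adjusted p = 0.00127), and Hif1a at 4202, 4624 and 4042 in VAT and 2266 and 2443 in spleen (log2 0.86, adjusted p = 0.000290). Both were higher in every VAT library. Of 4 nerve and glia genes tested none was called in limma, edgeR or DESeq2 (1, Ddc, was lower in VAT at an unadjusted p under 0.05), with summed levels of 32.8 to 114 in VAT and 61.9 and 296 in spleen. Dendritic cell genes were higher in VAT in 3 of 15 cases (1 without spleen replicate 2) and lower in 6, and genes of marginal zone macrophages in 3 (1 without spleen replicate 2) and 3 of 7. With spleen replicate 1 and then 2 left out, the log2 was 3.60 and 8.28 for Epas1.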
